A study of Homo sapiens with 12 samples.

Results

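Gene expression after treatment with the histone deacetylase (HDAC) inhibitor SAHA was compared with gene expression after the vehicle DMSO in MDA-MB-231 cells. These cells are an established line of human triple-negative breast cancer, mesenchymal in form. The comparison uses 6 of the 12 arrays of the study, chosen by their labels: 3 biological replicates grown for 24 h with 5 uM SAHA and no pargyline, and 3 with DMSO and no drug. The other 6 arrays, 3 with 2.5 mM pargyline and 3 with 5 uM SAHA plus 2.5 mM pargyline for the same 24 h, entered the estimate of the spread, and they are used below to look at the SAHA step on arrays that the first comparison did not use. Pargyline inhibits monoamine oxidases and can inhibit the histone demethylase LSD1. The data describe 1 cell line, 1 dose and 1 time, and the labels do not say whether the drug-treated cultures also received DMSO. Each value is a log2 intensity of an Affymetrix probe set, and 11963 genes were followed, each through its brightest probe set by the mean over the 12 arrays.

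HDACs remove acetyl groups from lysines in histone tails and in many other proteins, and they act largely as subunits of corepressor complexes such as CoREST, SIN3, NuRD and NCoR. SAHA (vorinostat) is a hydroxamate that binds the zinc ion in the active site of the class I, II and IV enzymes, while the sirtuins, which use NAD, are not its targets. HDAC inhibitors are known for raising the cell cycle inhibitor p21, for stopping proliferation, and for turning on genes of other tissues as well as lowering many active ones.

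A gene is said to have risen or fallen where limma's moderated test, two-sided, gave a p under 0.05 after Benjamini-Hochberg adjustment across the 11963 genes. Changes are log2 fold changes, SAHA minus DMSO, given with the standard error (SE) from this model with n = 3 arrays per group, so that a value of 1 is a doubling of the deposited signal. The deposited values have 2 peaks, with a valley near 4, and a value below 4 is called low here. A fold change that starts or ends in that range is a difference of the deposited values, not a measured ratio of transcript numbers. The median SE over genes was 0.077.

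The 8 genes chosen as usually high in this line lay above 4 on every array of both groups, among them vimentin (14.90 ± 0.01 with DMSO, 14.88 ± 0.02 with SAHA; mean ± SD, n = 3), and 6 of them fell, so that their summed level ran from 102.5 to 102.7 with DMSO and from 88.3 to 93.4 with SAHA. Of 10 genes chosen as usually low, 7 were below 4 on all 6 arrays, including E-cadherin (CDH1) and the oestrogen receptor gene ESR1, and the other 3 were above it with DMSO and fell: ERBB2 (-3.09 ± 0.16), GATA3 (-2.96 ± 0.26) and EPCAM (-2.48 ± 0.22). The 9 leukocyte markers measured and the 6 endothelial markers were below 4 on all 6 arrays, with summed levels of 19.5 to 19.7 and 14.04 to 14.22 with DMSO and of 19.5 to 19.8 and 14.26 to 14.90 with SAHA, and KDR was the endothelial marker that passed (0.48 ± 0.12, or 0 with values below 4 set to 4). Of 8 fibroblast markers 7 were below 4 throughout, the exception being COL1A1, and the sum ran from 24.7 to 25.1 with DMSO and from 24.8 to 25.3 with SAHA, PDGFRB being the 1 that passed (0.10 ± 0.03). The PDGFRB call was lost with quantile normalization (0.09), array centring (0.02), the compared groups alone (0.10) and values below 4 set to 4 (0), and without DMSO replicate 1, 2 or 3 or SAHA replicate 1 (0.06 to 0.10). The 3' minus 5' difference of the actin control, a sign of RNA quality, was 0.79 ± 0.03 (SD) with DMSO and 0.84 ± 0.07 with SAHA (exact two-sided permutation test, p = 0.3, where 3 arrays against 3 cannot go below 0.1). The array median over genes was 0.08 higher with SAHA (exact p = 0.1), and its part in the results was tested only by the scaling alternatives. Replicates correlated across genes at 0.9985 to 0.9992 with DMSO and at 0.9977 to 0.9988 with SAHA, and arrays of different groups at 0.9693 to 0.9744.

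SAHA moved almost as many genes up as down. In all, 2754 genes rose (23%) and 2768 fell (23.1%), and 46.2% passed in either direction. The median log2 fold change over all genes was 0.0015. The median size among genes that passed was 0.84 for rises and 0.78 for falls. A change of at least 2-fold was seen in 1123 rises (9.39% of genes) and 1047 falls (8.75%), at least 8-fold in 149 and 108, and at least 32-fold in 19 and 11. These percentages of all genes are the background against which the counts of each gene group below are to be read. Because bulk RNA was measured, a change in the RNA of every cell and a change in the share of cells that carry it cannot be told apart.

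**Figure D1:**
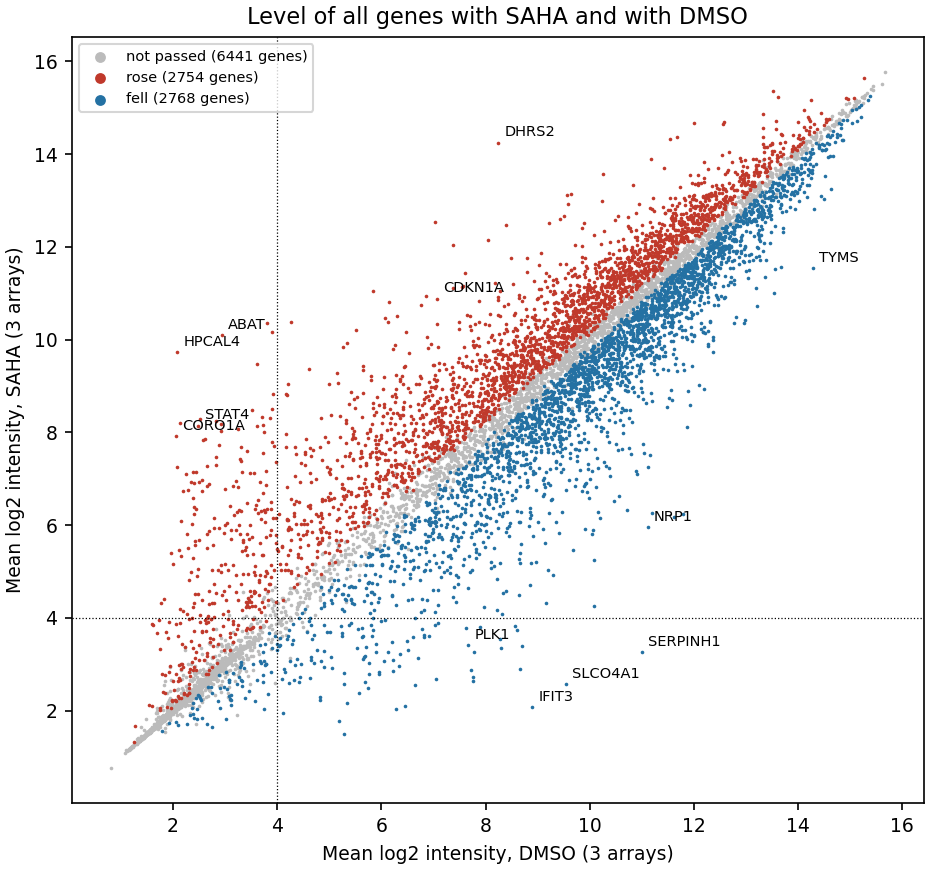
Mean log2 intensity of each of 11963 genes on the 3 SAHA arrays (vertical axis) against the 3 DMSO arrays (horizontal axis), with genes that rose in red, genes that fell in blue, genes that did not pass in grey and dotted lines at 4. The 2754 rises and 2768 falls lie on both sides of the diagonal, and HPCAL4, ABAT and STAT4 start in the low range while SERPINH1, SLCO4A1 and IFIT3 end in it.

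Rises and falls were also set against the level of the genes. Of the genes that rose, 285 were low on all 3 DMSO arrays, and 88 were low on all 6 arrays. Of those that fell, 61 were low on all 3 DMSO arrays, 169 on all 3 SAHA arrays and 61 on all 6. A gene that is low without SAHA has little room to fall, so the difference in DMSO level is in part fixed in advance. Among 4807 genes that were low on every DMSO array, 20 were above 7 on every SAHA array. Among 5861 genes above 7 on every DMSO array, 14 were below 4 on every SAHA array. The first group included the receptor tyrosine kinase gene ERBB3, the melanosome gene PMEL, the thyroid hormone-binding protein gene CRYM and the phospholipase gene PLCD1. The second included the laminin chain LAMB1 and the TGF-beta coreceptor endoglin (ENG). PMEL, CRYM and PLCD1 were named after their values were seen, and not every member of these groups is described. When genes were split into 5 groups of equal size by their mean on the 3 pargyline arrays, which belong to neither group, the share that rose was 2.38%, 8.99%, 41.6%, 33.2% and 28.9% from the dimmest to the brightest group, and the share that fell was 0.46%, 2.30%, 27.6%, 42.1% and 43.3%. Rises thus outnumbered falls in the middle group and falls outnumbered rises in the 2 brightest. The pargyline arrays also hold no SAHA, so this difference, like that in DMSO level, is in part fixed in advance. Split by the mean of all 12 arrays, which the change itself enters, rises were 0.71%, 6.73%, 37.6%, 35.1% and 35.0% and falls 0.50%, 4.10%, 34.1%, 40.1% and 36.8%.

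**Figure D2:**
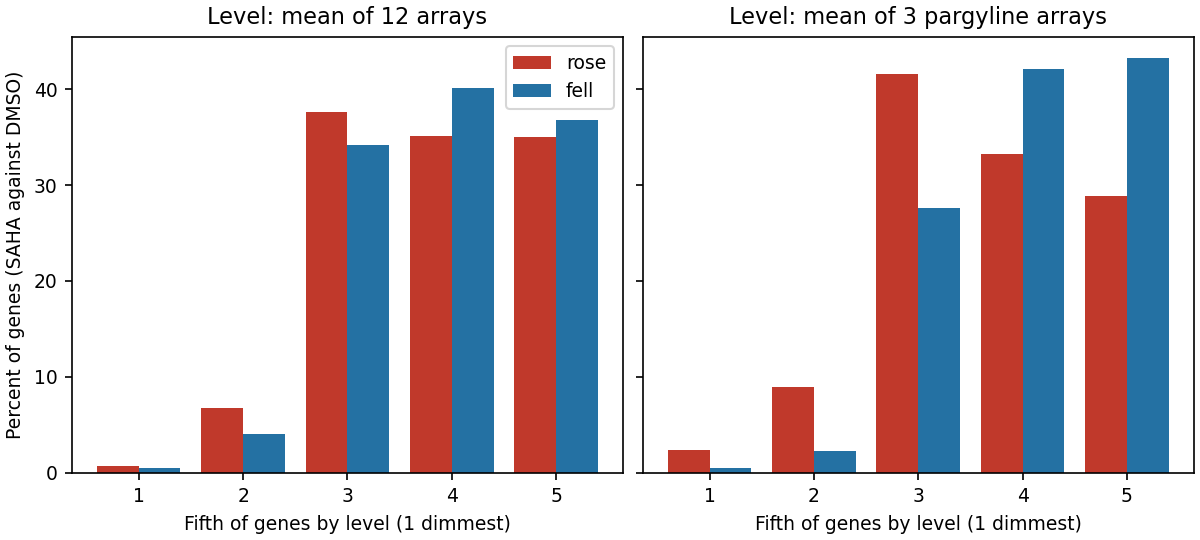
Percent of genes that rose (red) or fell (blue) with SAHA in each of 5 equal groups of genes by level, from the mean of all 12 arrays (left) and from the mean of the 3 pargyline arrays (right). With the pargyline arrays the share that rose peaks at 41.6% in the middle group, and the share that fell is 43.3% in the brightest.

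Among the probe sets followed, the largest changes went in both directions. They ran from 7.66 for HPCAL4, a neuronal calcium sensor, to -7.74 for SERPINH1, a collagen chaperone. STAT4, a transcription factor of cytokine signalling in lymphocytes, read 2.43, 2.56 and 2.47 on the DMSO arrays and 8.12, 8.12 and 8.20 on the SAHA arrays, a rise of 5.66 ± 0.07 (adjusted p = 5.92e-11 in limma). All DMSO arrays were in the low range and all SAHA arrays well above it. CORO1A, a coronin that binds actin in leukocytes, read 2.44, 1.85 and 1.88 with DMSO and 8.64, 8.19 and 6.92 with SAHA (5.86 ± 0.49), while all 9 leukocyte markers stayed low. RCAN2, an inhibitor of the phosphatase calcineurin, read 2.55, 2.48 and 2.55 and 8.26, 8.36 and 8.24 (5.76 ± 0.23). The arrays of the 2 groups did not overlap for any of these, which the rule for naming the largest changes required. They did not overlap for 52.9% of all genes. The calcium-regulating hormone gene STC1 (5.50 ± 0.42), the GTPase ARL14 (5.42 ± 0.22), the phospholipase-like gene PLCL1 (5.26 ± 0.19), the water and glycerol channel AQP3 (5.21 ± 0.19), the dynamin DNM3 (5.11 ± 0.16) and the mineralocorticoid receptor NR3C2 (4.97 ± 0.35) rose as well. A further AQP3 probe set rose by only 1.78 ± 0.19. Another, with means of 2.08 with DMSO and 2.26 with SAHA, did not pass (0.17 ± 0.44). With values below 4 set to 4, a lower limit chosen after the data were seen, the rises of HPCAL4, STAT4 and CORO1A were 5.74, 4.15 and 3.91, so that part of each size lies within the low range.

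On the falling side NRP1, a coreceptor for VEGF and semaphorins, read 10.91, 10.97 and 11.44 with DMSO and 5.75, 5.46 and 6.68 with SAHA (-5.15 ± 0.41, adjusted p = 4.26e-06 in limma). HMGA2, an architectural chromatin protein of embryonic and tumour cells, read 10.02, 10.09 and 10.14 and 4.44, 4.71 and 6.58 (-4.84 ± 0.63). The SAHA arrays of both genes were lower than every DMSO array, which the naming rule required. ATF5, a stress-response transcription factor, fell from 8.58, 8.25 and 8.05 to 3.75, 3.23 and 3.11 (-4.93 ± 0.22). LAMB1 (-4.85 ± 0.18), ENG (-4.84 ± 0.21), the phosphatase PTPN9 (-4.72 ± 0.18), the interferon-induced STAT partner NMI (-4.93 ± 0.33), the zinc finger gene ZNF532 (-4.84 ± 0.47) and the cytokine receptor IL27RA (-4.74 ± 0.06) fell as well. Other falls of over 5 included the organic anion transporter SLCO4A1 (-6.98 ± 0.22), the focal adhesion adaptor LPXN (-5.81 ± 0.28), the interleukin receptor IL7R (-5.77 ± 0.65) and the desmosomal plakophilin PKP3 (-5.32 ± 0.19). The fall of SERPINH1, whose 3 SAHA values of 3.48, 3.11 and 3.21 are in the low range against 11.04, 11.09 and 10.87 with DMSO, was -7.00 with values below 4 set to 4.

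The stretches of 250 bases upstream of 6 genes are shown because these genes stand for the groups that the results turn on: the CDK inhibitor CDKN1A, the mitotic kinase PLK1, the interferon effector IFIT3, the immediate early gene FOS, the largest rise, HPCAL4, and the largest fall, SERPINH1. They are RefSeq sequences of GRCh38.p14, read 5' to 3' on the gene's strand, with capitals for matches, on either strand, to 9 short motifs: the GC box (GGGCGG), the CCAAT box (CCAAT), the TATA box (TATAAA), an E-box (CACGTG), the AP-1 site (TGANTCA), a CRE half-site (TGACGT), the CHR (TTTGAA), the core of the interferon response element or ISRE (GAAA, any 2 bases, GAAA) and an ETS core (CCGGAA). The sequence of CDKN1A is chr6:36678464-36678713 on the plus strand, that of PLK1 chr16:23678639-23678888 on the plus strand, that of IFIT3 chr10:89327747-89327996 on the plus strand, that of FOS chr14:75278578-75278827 on the plus strand, that of HPCAL4 chr1:39691434-39691683 on the minus strand and that of SERPINH1 chr11:75562003-75562252 on the plus strand.
CDKN1A: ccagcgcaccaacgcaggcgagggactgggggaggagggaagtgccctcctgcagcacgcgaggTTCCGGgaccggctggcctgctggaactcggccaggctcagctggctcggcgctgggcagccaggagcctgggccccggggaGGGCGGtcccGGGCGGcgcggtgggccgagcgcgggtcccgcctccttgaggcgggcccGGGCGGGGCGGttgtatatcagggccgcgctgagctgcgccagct
PLK1: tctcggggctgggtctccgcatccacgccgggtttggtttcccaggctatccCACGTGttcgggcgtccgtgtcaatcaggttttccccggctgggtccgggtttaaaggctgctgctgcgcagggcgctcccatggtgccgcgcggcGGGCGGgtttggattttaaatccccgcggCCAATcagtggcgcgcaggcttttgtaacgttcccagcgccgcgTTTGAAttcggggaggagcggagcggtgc
IFIT3: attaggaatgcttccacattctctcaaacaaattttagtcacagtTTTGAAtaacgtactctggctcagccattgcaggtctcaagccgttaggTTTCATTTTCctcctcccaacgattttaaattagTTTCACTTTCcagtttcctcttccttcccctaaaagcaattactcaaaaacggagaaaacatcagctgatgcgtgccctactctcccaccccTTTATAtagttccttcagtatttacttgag
FOS: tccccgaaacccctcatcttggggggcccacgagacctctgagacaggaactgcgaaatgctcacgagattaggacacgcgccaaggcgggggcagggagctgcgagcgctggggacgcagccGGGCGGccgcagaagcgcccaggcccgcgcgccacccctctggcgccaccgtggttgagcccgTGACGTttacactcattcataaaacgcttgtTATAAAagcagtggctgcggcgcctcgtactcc
HPCAL4: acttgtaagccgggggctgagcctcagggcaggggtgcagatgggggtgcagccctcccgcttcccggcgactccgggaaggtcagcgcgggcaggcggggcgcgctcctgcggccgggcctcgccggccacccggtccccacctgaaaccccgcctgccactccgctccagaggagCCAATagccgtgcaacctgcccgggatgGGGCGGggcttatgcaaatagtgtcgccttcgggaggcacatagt
SERPINH1: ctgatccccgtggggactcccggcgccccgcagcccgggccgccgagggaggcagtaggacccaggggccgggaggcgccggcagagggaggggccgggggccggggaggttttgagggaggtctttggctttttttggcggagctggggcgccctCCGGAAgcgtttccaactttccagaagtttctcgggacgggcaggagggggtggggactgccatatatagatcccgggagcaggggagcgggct
CDKN1A holds 4 GC boxes, which begin 104, 94, 45 and 40 bases upstream of the start, the last pair sharing a base, and an ETS core. PLK1 holds a CHR 29 bases, a CCAAT box 73 bases and a GC box 102 bases upstream, and an E-box. IFIT3 holds 2 ISRE cores, 156 and 122 bases upstream, with a TATA box at 30 and a CHR. FOS holds a TATA box at 33, a CRE half-site at 64 and a GC box. HPCAL4 holds a GC box at 45 and a CCAAT box at 73, and SERPINH1 an ETS core at 94. A match is a description of letters and not a binding site.

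Among the genes of the zinc-dependent HDACs the changes went both ways, with falls in class IIa only. Of the zinc-dependent HDACs 9 were measured, 3 rose, 2 fell and 4 did not pass (median 0.13). In class I, the nuclear corepressor enzymes, HDAC3, the catalytic subunit of NCoR complexes, read 10.78, 10.64 and 10.54 with DMSO and 12.05, 12.02 and 11.72 with SAHA (1.28 ± 0.09, adjusted p = 2.19e-06 in limma). HDAC1 rose by little (0.16 ± 0.04), and HDAC2 did not pass (0.12 ± 0.07). In class IIa, enzymes that shuttle between nucleus and cytoplasm, the pattern was mixed: HDAC5 rose from 3.35, 2.89 and 3.28 to 6.39, 6.05 and 6.19 (3.04 ± 0.19), whereas HDAC7 fell from 5.71, 5.90 and 5.46 to 2.62, 2.65 and 2.59 (-3.07 ± 0.41). HDAC5 thus left the low range and HDAC7 entered it, with no overlap between the arrays of the groups. HDAC4 (-0.46 ± 0.16) fell slightly, and HDAC9 (0.93 ± 0.37), the tubulin deacetylase HDAC6 (0.13 ± 0.08) and HDAC11 (0.09 ± 0.07) did not pass. The HDAC1 call was lost without DMSO replicate 2 or SAHA replicate 1 (0.14 in both) and with array centring (0.08). The HDAC4 call was lost without DMSO replicate 1, 2 or 3 or SAHA replicate 1 or 2 (-0.48 to -0.28), with quantile normalization (-0.45), and with the compared groups alone or values below 4 set to 4 (-0.46 in both). HDAC11 fell with quantile normalization (-0.25). HDAC9 passed without SAHA replicate 1 (1.25) and with the dimmest genes left out (0.93). HDAC8 and HDAC10 were not analysed here. Of the sirtuins, the NAD-dependent deacylases, 7 were measured, 4 rose, 1 fell and 2 did not pass (median 0.94). SIRT4 (3.23 ± 0.33), SIRT2 (1.63 ± 0.20), SIRT7 (0.96 ± 0.13) and SIRT3 (0.94 ± 0.20) rose and SIRT5 (-0.60 ± 0.14) fell, and with array centring 2 sirtuins fell.

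The corepressor complexes that carry HDAC1 and HDAC2 differed in their counts. Of the NuRD subunits, which join deacetylation to nucleosome remodelling, 9 were measured, 0 rose, 7 fell and 2 did not pass (median -0.59). MBD3, the subunit that holds the complex together, read 9.82, 9.61 and 9.51 with DMSO and 7.71, 7.95 and 7.60 with SAHA (-1.89 ± 0.12), and MTA1 (-1.17 ± 0.13), RBBP4 (-0.59 ± 0.07) and MBD2 (-0.28 ± 0.05) fell. Of the SIN3 subunits 8 were measured, 5 rose, 0 fell and 3 did not pass (median 0.43), with rises of ING1 (1.22 ± 0.17), SIN3B (0.95 ± 0.08), SAP30L (0.51 ± 0.07) and SAP18 (0.47 ± 0.10). Of CoREST subunits 7 were measured, 2 rose, 1 fell and 4 did not pass (median 0.21). HMG20B (1.01 ± 0.06) and RCOR1 (0.49 ± 0.07) rose, while LSD1's gene KDM1A (0.21 ± 0.09) and the neuronal repressor REST (-0.21 ± 0.20) did not pass. KDM1A passed with quantile normalization (0.24). Of 3 NCoR subunits GPS2 (0.94 ± 0.11) rose and TBL1XR1 (-1.35 ± 0.21) fell. Each subunit was counted under 1 complex only. RBBP4, counted under NuRD, is shared with SIN3 complexes, so the 0 falls hold for the genes listed under SIN3. The direction of the difference between complexes was not tested.

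More writers and readers of acetyl marks fell than rose. Of the acetyltransferases 12 were measured, 1 rose, 7 fell and 4 did not pass (median -0.86). The nuclear receptor coactivator NCOA2 fell from 9.45, 9.47 and 9.90 to 6.77, 6.63 and 7.51 (-2.64 ± 0.28), and KAT2A (-1.53 ± 0.17), KAT6B (-1.48 ± 0.15) and KAT5 (-1.39 ± 0.08) fell. HAT1 (0.34 ± 0.08), which acetylates new histone H4, was the 1 that rose. Of the bromodomain readers 12 were measured, 1 rose, 7 fell and 4 did not pass (median -0.31), with BRD1 (-2.00 ± 0.22), BRD9 (-1.50 ± 0.14) and BRD8 (-0.89 ± 0.08) among the falls, and 0 rose with array centring. Of polycomb genes 13 were measured, 3 rose, 4 fell and 6 did not pass (median -0.02), with CBX7 (1.82 ± 0.15) and JARID2 (1.30 ± 0.07) higher and PHC2 (-1.12 ± 0.08) and the methyltransferase EZH2 (-0.62 ± 0.08) lower. Of DNA methylation genes 8 were measured, 1 rose, 4 fell and 3 did not pass (median -0.31). The de novo methyltransferase DNMT3A (-2.74 ± 0.15) and the maintenance enzyme DNMT1 (-0.98 ± 0.07) fell. Of 14 genes in the histone chaperone list 2 rose and 7 fell, the centromeric histone CENPA (-1.65 ± 0.16), its chaperone HJURP (-1.38 ± 0.27) and NASP (-0.90 ± 0.12) being among the falls and ASF1A (0.90 ± 0.12) among the rises. The core histone list had 31 members, of which 7 rose and 3 fell, H2BC9 (2.05 ± 0.10) and H2BC6 (1.93 ± 0.15) being among the rises. Probe sets of histone genes can bind transcripts of near-identical family members.

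Genes that HDAC inhibitors usually raise mostly rose. Of these 17 were measured, 13 rose, 1 fell and 3 did not pass (median 1.62). CDKN1A, which encodes p21 and whose promoter with 4 GC boxes is printed above, read 7.13, 7.10 and 6.96 with DMSO and 11.16, 10.92 and 10.58 with SAHA (3.82 ± 0.25, adjusted p = 1.11e-06 in limma). Gelsolin (GSN), which severs actin filaments, read 6.91, 6.26 and 7.10 and 10.92, 10.62 and 10.73 (4.00 ± 0.20). DHRS2, a mitochondrial and nuclear reductase long used as a marker of HDAC inhibition, was already above the low range with DMSO (7.96, 8.46 and 8.31) and read 14.25, 14.40 and 14.09 with SAHA. All 3 were higher on every SAHA array than on any DMSO array, which for DHRS2 was a condition of the naming rule. The DHRS2 probe set followed rose by 6.01. A further, dimmer DHRS2 probe set had means of 4.18 with DMSO and 13.46 with SAHA. Its rise of 9.28 ± 0.54 was larger than that of any probe set followed. KLF6 (-0.11 ± 0.16) did not pass. Of genes usually lowered 10 were measured, 1 rose, 9 fell and 0 did not pass (median -1.14), MYC (1.51 ± 0.22) being the 1 that rose.

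Most mitotic regulators fell. Of the mitotic regulators 39 were measured, 0 rose, 31 fell and 8 did not pass (median -0.85), so that no member rose. PLK1, the kinase that drives mitotic entry, read 7.65, 7.66 and 7.70 with DMSO and 3.30, 3.63 and 3.31 with SAHA (-4.26 ± 0.26, adjusted p = 8.46e-07 in limma), which took it into the low range. Aurora kinases AURKA (-2.02 ± 0.12) and AURKB (-1.82 ± 0.22), the ubiquitin enzyme UBE2C (-2.04 ± 0.16) and the kinetochore kinesin CENPE (-1.75 ± 0.15) fell, and of 13 kinesins 12 fell. Of A and B cyclins with their partners 10 were measured, 1 rose, 7 fell and 2 did not pass (median -1.21). CCNB2 (-1.66 ± 0.17), CCNB1 (-1.54 ± 0.11) and the phosphatases CDC25B (-1.68 ± 0.05) and CDC25A (-1.55 ± 0.24), which activate their kinases, fell, while CCNA1 (1.30 ± 0.07), a cyclin mainly of germ cells, rose. In G1, CDK4 (-1.42 ± 0.07), CCND1 (-1.24 ± 0.32) and CCNE2 (-1.03 ± 0.11) fell and CCND3 (1.30 ± 0.12) rose. A further CCND1 probe set above the median level did not pass (-0.96 ± 0.36). Of the CDK inhibitors 7 were measured, 3 rose, 0 fell and 4 did not pass (median 0.17): CDKN1C (2.89 ± 0.33) and CDKN2D (0.99 ± 0.10) rose with CDKN1A, and CDKN3 (0.17 ± 0.08) was among those that did not. Of the RB and E2F genes 12 were measured, 2 rose, 6 fell and 4 did not pass (median -0.42), with E2F5 (-3.09 ± 0.38), TFDP1 (-1.46 ± 0.07) and E2F3 (-1.35 ± 0.15) lower, TFDP2 (1.69 ± 0.07) higher, and RB1 (0.25 ± 0.17) and E2F1 (-0.41 ± 0.26) short of the threshold, and with array centring 1 of this list rose. Among 13 cyclins and kinases of transcription 4 rose, such as CDK7 (0.53 ± 0.10) and CDK8 (0.48 ± 0.07), and 6 fell, such as CCNT2 (-1.06 ± 0.13) and CDK13 (-0.76 ± 0.07).

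**Figure D3:**
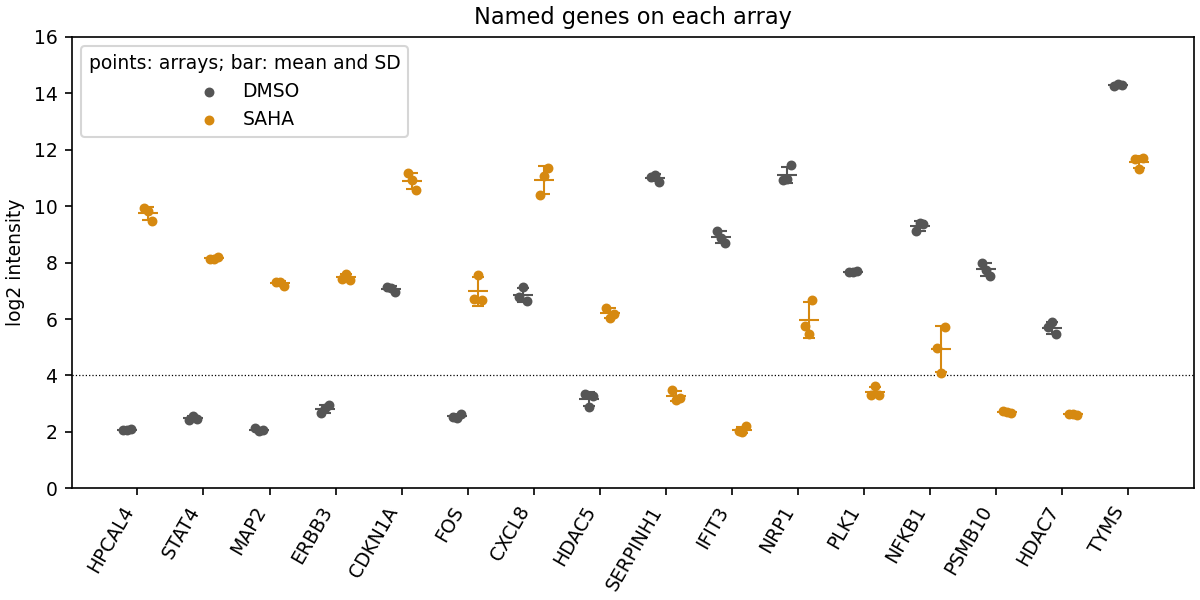
Log2 intensity of 16 named genes on each of the 3 DMSO arrays (grey) and 3 SAHA arrays (orange), with the mean and SD of each group; the dotted line marks 4. The groups do not overlap for any of these genes, which was a condition for those named by the size of their change. SERPINH1, IFIT3, PLK1, PSMB10 and HDAC7 end below the line with SAHA.

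Most nucleotide synthesis genes fell too. Of the purine and pyrimidine synthesis genes 15 were measured, 0 rose, 13 fell and 2 did not pass (median -0.92), and with quantile normalization 1 rose. CTPS1, which makes CTP, read 10.45, 10.37 and 10.20 with DMSO and 8.14, 7.93 and 7.97 with SAHA (-2.32 ± 0.17), and CAD (-1.29 ± 0.15), ATIC (-1.24 ± 0.09) and PFAS (-1.07 ± 0.14) fell. Thymidylate synthase (TYMS), the target of fluorouracil, fell from 14.24, 14.31 and 14.30 to 11.65, 11.30 and 11.70 (-2.73 ± 0.16), and DTYMK (-1.73 ± 0.11) and the nucleoside transporter SLC29A1 (-1.51 ± 0.16) were lower too. The ribonucleotide reductase subunits went apart, RRM1 (-0.62 ± 0.10) falling and RRM2 (0.84 ± 0.18) rising, and TK1 (0.84 ± 0.15) rose. Neither direction was shared by every enzyme of DNA precursor supply.

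Most splicing factors fell, most ribosomal protein genes did not pass, and proteasome subunits fell more often than they rose. Of the SR and hnRNP proteins, which choose splice sites, 25 were measured, 0 rose, 21 fell and 4 did not pass (median -0.65). HNRNPH3 (-1.36 ± 0.10), HNRNPL (-1.33 ± 0.07), SRSF5 (-1.26 ± 0.07) and SRSF7 (-1.25 ± 0.11) were among the falls. Of core spliceosome genes 25 were measured, 2 rose, 14 fell and 9 did not pass (median -0.32), with U2AF2 (-1.47 ± 0.10), which binds the polypyrimidine tract, and SF3A3 (-1.33 ± 0.10) lower and PRPF4 (0.38 ± 0.07) higher, and with quantile normalization 4 rose, with array centring 1. Of cytosolic ribosomal protein genes 45 were measured, 3 rose, 9 fell and 33 did not pass (median -0.06), with the largest fall in RPL6 (-0.27 ± 0.03). This direction depends on the scaling: with each array centred on its median, which put the median gene at -0.07, 0 ribosomal protein genes rose and 26 fell. Of constitutive proteasome subunits 27 were measured, 5 rose, 15 fell and 7 did not pass (median -0.23), but with array centring 2 rose and 17 fell. The catalytic subunits PSMB6 (-0.93 ± 0.08) and PSMB5 (-0.88 ± 0.10) fell, and the lid subunit PSMD3 (0.73 ± 0.06) rose. The 3 immunoproteasome subunits, which replace constitutive ones in cells exposed to interferon, went apart. PSMB10 read 7.99, 7.75 and 7.54 with DMSO and 2.75, 2.72 and 2.69 with SAHA (-5.04 ± 0.15), and PSMB8 (-3.15 ± 0.31) fell. PSMB9, named after its values were seen, rose from 3.84, 3.81 and 3.45 to 6.45, 6.18 and 6.29 (2.61 ± 0.16), and the activator subunit PSME1 (0.68 ± 0.07) rose too.

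Interferon effectors were split, with more falls than rises. Of these 35 were measured, 4 rose, 16 fell and 15 did not pass (median -0.25). IFIT3, an antiviral protein induced by interferon whose promoter holds both printed ISRE cores, read 9.11, 8.88 and 8.68 with DMSO and 2.02, 2.00 and 2.20 with SAHA (-6.82 ± 0.15, adjusted p = 2.47e-09 in limma). IFI44 fell from 9.79, 9.72 and 9.54 to 4.88, 4.91 and 6.60 (-4.22 ± 0.40), and IFI35 from 7.93, 7.79 and 7.62 to 3.31, 3.29 and 3.19 (-4.52 ± 0.14). ISG15, a ubiquitin-like protein induced by the same pathway, rose from 11.31, 11.32 and 11.13 to 12.23, 12.26 and 11.87 (0.87 ± 0.10), and GBP2 (1.56 ± 0.22), SAMD9 (1.02 ± 0.18) and IFI6 (3.44 ± 0.12) rose as well. The cytosolic RNA sensor RIGI (-2.32 ± 0.27) fell, one of 3 falls among 5 sensors. Of the receptors and kinases 3 rose and 3 fell of 7, with JAK1 (0.79 ± 0.05) and IFNGR1 (0.77 ± 0.05) higher and the partner chain IFNGR2 (-1.41 ± 0.23) lower. Among 6 transcription factors 2 rose, IRF1 (1.02 ± 0.14) being one, and 1 fell, or 2 with array centring. Antigen presentation genes moved apart within the same pathway. Of 13 class I genes 8 rose and 4 fell: the heavy chains HLA-B (1.52 ± 0.10), HLA-C (1.10 ± 0.11) and HLA-F (1.07 ± 0.10) rose, while the peptide transporter subunit TAP2 (-1.65 ± 0.12), the trimming enzyme ERAP1 (-1.46 ± 0.20) and TAPBP (-1.08 ± 0.08) fell. A further ERAP1 probe set above the median level did not pass (-0.19 ± 0.09), and a dimmer one fell (-2.13 ± 0.23). Probe sets of the heavy chains can bind transcripts of one another. Of 16 class II genes 5 rose and 1 fell, or 2 with array centring, and HLA-DMB, which loads peptides on class II molecules, read 2.78, 2.68 and 2.36 and 7.87, 7.90 and 7.80 (5.24 ± 0.14).

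Inflammatory signalling also held large opposite changes. In NF-kB, NFKB1, which encodes p105 and p50, read 9.11, 9.42 and 9.36 with DMSO and 4.99, 4.09 and 5.72 with SAHA (-4.36 ± 0.36, adjusted p = 5.39e-06 in limma). NFKB2, which encodes p100 and p52, read 6.29, 6.29 and 6.43 and 8.34, 8.25 and 8.53 (2.04 ± 0.15). The arrays did not overlap for either gene, so that these 2 related subunits went opposite ways. REL (0.72 ± 0.08), RELA (0.44 ± 0.07) and the feedback inhibitor TNFAIP3 (2.38 ± 0.21) rose, and the main inhibitor NFKBIA (-0.52 ± 0.12) and TNFAIP2 (-1.76 ± 0.11) fell. The neutrophil attractant CXCL8 read 6.79, 7.14 and 6.65 and 10.39, 11.06 and 11.36 (4.08 ± 0.31), and CXCL2 (2.35 ± 0.50) rose. LIF, a cytokine of the IL-6 family, fell from 9.98, 10.05 and 10.16 to 5.44, 5.04 and 7.23 (-4.16 ± 0.62), while its receptor gene LIFR (2.29 ± 0.25) and the shared chain IL6ST (0.59 ± 0.11) rose. CSF1 (-1.79 ± 0.24), IL11 (-1.05 ± 0.15), TNFRSF1A (-1.08 ± 0.20) and IL13RA1 (-0.81 ± 0.09) fell and IL1RAP (1.60 ± 0.09) rose. In all, of 24 cytokine receptors 5 rose and 8 fell, and of 23 ligands 6 rose and 3 fell.

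Neuronal genes were mostly low in both groups, and a few rose by large amounts. Of 73 genes listed for neurons and neurosecretory cells, 47 were below 4 on all 6 arrays, and 17 rose, 5 fell and 51 did not pass (median 0.01). MAP2, a microtubule protein of dendrites, read 2.14, 2.02 and 2.08 with DMSO and 7.31, 7.31 and 7.16 with SAHA (5.18 ± 0.16), and the synaptotagmin SYT11 read 2.56, 2.58 and 2.57 and 7.80, 8.07 and 7.63 (5.27 ± 0.13). Tau (MAPT, 2.40 ± 0.18), the adhesion molecule L1CAM (2.15 ± 0.20), neuronal enolase (ENO2, 1.30 ± 0.11) and the prohormone-processing enzyme CPE (0.99 ± 0.12) rose from levels that were not low. The syntaxin STX1A (-1.95 ± 0.27) and the microtubule protein MAP1B (-0.88 ± 0.16) fell. Of 10 calcium sensors 4 rose, 1 fell and 5 did not pass (median 0.08), with VSNL1 (2.75 ± 0.14), CALB2 (1.95 ± 0.19) and HPCAL1 (0.61 ± 0.05) beside HPCAL4, whose arrays read 2.07, 2.08 and 2.09 with DMSO and 9.92, 9.81 and 9.48 with SAHA. With array centring 2 calcium sensors fell. Of 30 transmitter genes 2 rose, 3 fell and 25 did not pass (median 0.00), but 5 fell with quantile normalization and 1 rose with array centring. In the GABA pathway the breakdown enzyme ABAT rose while the synthetic enzyme GAD1 (-1.47 ± 0.20) and ALDH5A1 (-2.37 ± 0.42), the next step of breakdown, fell. Of 49 ion channel genes 40 were low on all 6 arrays, 7 rose, 2 fell and 40 did not pass (median 0.00), but with quantile normalization or array centring 5 rose and 6 fell. The potassium channel subunit KCNS3 (1.39 ± 0.05) rose and the calcium-activated channel KCNN4 (-3.08 ± 0.34) fell. Germline genes gave a like picture: of 34 genes 26 were low on all 6 arrays, 5 rose, 2 fell and 27 did not pass (median 0.01), but with quantile normalization 5 rose and 8 fell. MAGEB2 (4.60 ± 0.22) and the germ cell bridge gene TEX14 (4.85 ± 0.21) rose, and MAGEC1 (-1.31 ± 0.12) fell.

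**Figure D4:**
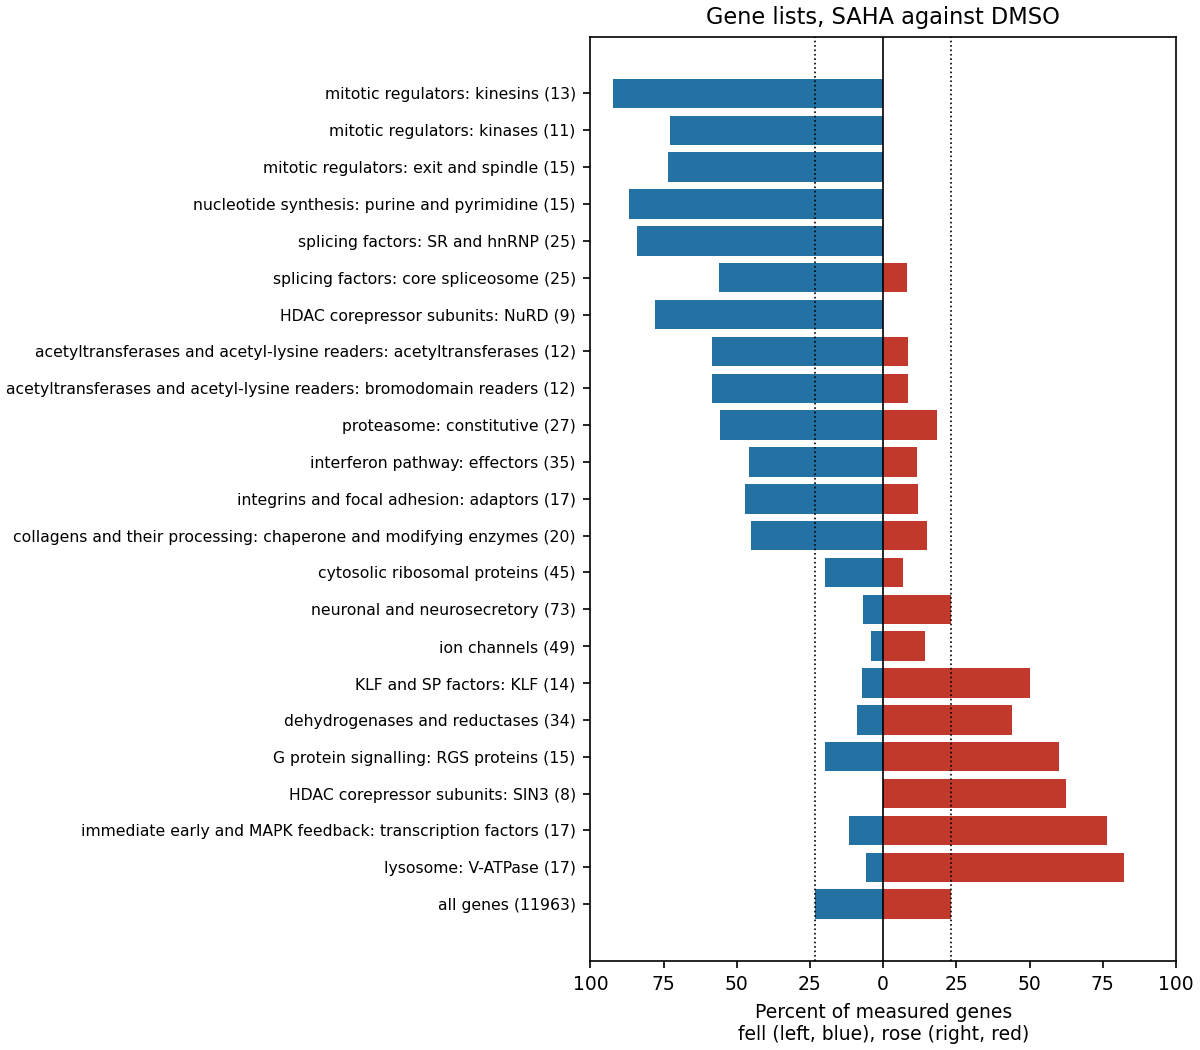
Percent of measured genes that rose (red, right) and fell (blue, left) with SAHA in 22 lists or roles and, at the bottom, over all genes; the number measured is in brackets and dotted lines mark the all-gene shares of 23% and 23.1%. Mitotic regulators, nucleotide synthesis, splicing factors and NuRD lie to the left, and V-ATPase subunits, immediate early transcription factors and SIN3 to the right.

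Adhesion and matrix genes included rises and falls, in several groups at shares below the 23% and 23.1% of all genes. Of integrins 20% rose and 20% fell, of matrix proteases 9.1% and 13.6%, and of collagen chains 4.3% and 17.4%. Falls were more frequent among collagen enzymes (45%) and focal adhesion adaptors (47.1%), and rises among TIMPs (60%). Of collagen chaperones and modifying enzymes 20 were measured, 3 rose, 9 fell and 8 did not pass (median -0.10). Beside SERPINH1, FKBP10 (-1.48 ± 0.11), P3H2 (-1.25 ± 0.23) and PLOD3 (-1.18 ± 0.07) fell and PLOD2 (1.08 ± 0.20) rose. Of 23 collagen chains 1 rose (COL5A1, 0.80 ± 0.15) and 4 fell, among them COL13A1 (-2.07 ± 0.14) and the basement membrane chains COL4A1 (-1.47 ± 0.16) and COL4A2 (-1.10 ± 0.08). Further COL5A1 probe sets did not pass (0.13 ± 0.22 and 0.34 ± 0.13). The urokinase system fell at 2 of its steps: PLAU, the protease, read 11.65, 11.66 and 11.54 with DMSO and 5.84, 5.11 and 7.60 with SAHA, and its receptor PLAUR (-3.49 ± 0.21) fell, while tissue plasminogen activator PLAT (1.99 ± 0.10) and the inhibitors SERPINI1 (4.11 ± 0.14) and SERPINE2 (1.45 ± 0.14) rose. The coagulation inhibitor TFPI and its relative TFPI2 went opposite ways, -5.56 ± 0.26 and 2.10 ± 0.10. All SAHA values of PLAU were below every DMSO value, with a wider spread. Of 5 TIMPs, inhibitors of matrix metalloproteinases, 3 rose, led by TIMP2 (2.04 ± 0.22), and of 22 proteases of that list 2 rose and 3 fell, or 2 and 5 with quantile normalization. Of focal adhesion adaptors 17 were measured, 2 rose, 8 fell and 7 did not pass (median -0.22). FERMT1 (-3.40 ± 0.39), the kinase SRC (-2.31 ± 0.14) and TGFB1I1 (-2.75 ± 0.16) fell and NEDD9 (2.03 ± 0.25) rose. Of 20 integrins 4 rose and 4 fell, with ITGB4 (-2.47 ± 0.27), the hemidesmosome subunit, lowest.

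Epithelial and mesenchymal genes did not shift as blocks. Of 36 epithelial junction genes 7 rose, 8 fell and 21 did not pass (median 0.00): plakoglobin (JUP, 2.79 ± 0.29) and the polarity gene LLGL2 (2.01 ± 0.17) rose, DSG2 (-1.46 ± 0.25) and the sorting adaptor AP1M2 (-3.65 ± 0.22) fell, and CDH1 stayed low on all 6 arrays (0.01 ± 0.03). Of 28 mesenchymal genes 9 rose, 9 fell and 10 did not pass (median 0.00). CCN2 (1.61 ± 0.07), S100A4 (1.50 ± 0.11), fibronectin (FN1, 1.30 ± 0.31) and SNAI2 (1.00 ± 0.11) rose, CD44 (-2.11 ± 0.14), TNC (-1.85 ± 0.36) and CAV1 (-1.38 ± 0.11) fell, and VIM (-0.02 ± 0.04) did not pass. Among 11 keratins KRT19 (2.76 ± 0.14) rose and KRT7 (-1.93 ± 0.22) fell, and 3 rose and 2 fell in all, or 1 and 2 with array centring. Of 17 luminal breast genes 2 rose, 4 fell and 11 did not pass (median 0.01), with XBP1 (-2.12 ± 0.10) and MLPH (-1.59 ± 0.24) falling beside GATA3, and ESR1, FOXA1 and PGR low in both groups, but with array centring 0 rose and 4 fell and with quantile normalization 1 rose and 5 fell. In the cytoskeleton, 7 of 22 tubulin and tubulin-folding genes rose and 6 fell, among them TUBA1A (2.69 ± 0.25) and TUBB6 (-1.47 ± 0.10). Tubulin probe sets can bind transcripts of related genes. Of 38 actin regulators 9 rose, 15 fell and 14 did not pass (median -0.01). The WAVE complex subunits CYFIP2 (4.58 ± 0.27) and WASF3 (1.40 ± 0.06) rose, while CYFIP1 (-0.49 ± 0.05), ARPC1B (-1.47 ± 0.06) and profilin (PFN1, -0.70 ± 0.06) fell.

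Immediate early transcription factors, which respond to growth signals within minutes, were higher after 24 h. Of these 17 were measured, 13 rose, 2 fell and 2 did not pass (median 1.51). FOS read 2.54, 2.51 and 2.63 with DMSO and 6.70, 7.57 and 6.67 with SAHA (4.42 ± 0.26, adjusted p = 6.24e-07 in limma). NR4A2 (4.92 ± 0.26), ATF3 (4.67 ± 0.20), JUNB (2.57 ± 0.09) and EGR1 (2.12 ± 0.27) rose, whereas FOSL1 (-2.16 ± 0.11) fell, so that FOS family members went opposite ways. Of 15 feedback genes 5 rose and 5 fell. The phosphatases DUSP1 (2.71 ± 0.14), DUSP10 (2.46 ± 0.09) and DUSP5 (2.27 ± 0.05) rose, and DUSP4 (-1.42 ± 0.22) and the Sprouty genes SPRY1 (-1.88 ± 0.37) and SPRY4 (-1.44 ± 0.26) fell. Of RGS proteins, which switch off G proteins, 15 were measured, 9 rose, 3 fell and 3 did not pass (median 0.69), with RGS2 (1.75 ± 0.15) higher and RGS20 (-2.67 ± 0.22) lower. Of lysophospholipid genes 3 of 14 rose and 3 fell, or 3 and 6 with quantile normalization: ENPP2 (6.55 ± 0.27), which makes lysophosphatidic acid, rose and the receptor LPAR1 (-2.27 ± 0.21) fell.

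Receptor and developmental pathways changed member by member. ERBB3, a receptor with little kinase activity of its own, read 2.68, 2.84 and 2.95 with DMSO and 7.43, 7.60 and 7.38 with SAHA (4.65 ± 0.12), while its partner ERBB2 read 8.26, 8.40 and 8.19 and 5.40, 5.30 and 4.88 (-3.09 ± 0.16). The groups did not overlap for either, which the naming rule required. EGFR (-0.28 ± 0.27) did not pass, but did without SAHA replicate 3 (-0.60). FGFR4 (4.05 ± 0.25), FGFR1 (1.44 ± 0.11) and FGFR3 (1.38 ± 0.22) rose, and the ligands VEGFC (-2.45 ± 0.36), PDGFA (-1.80 ± 0.20) and VEGFA (-1.69 ± 0.19) fell. In all 10 of 39 growth factor genes rose and 9 fell. In the TGF-beta and BMP list 13 rose, 6 fell and 17 did not pass (median 0.12). All 4 ID genes, inhibitors of basic helix-loop-helix factors and targets of BMP signalling, rose: ID2 (4.67 ± 0.19), ID4 (1.81 ± 0.17), ID1 (1.63 ± 0.11) and ID3 (1.14 ± 0.18). The signal carriers SMAD1 (-1.89 ± 0.27) and SMAD3 (-1.48 ± 0.34) fell, GDF15 (3.56 ± 0.56) and BMP4 (1.09 ± 0.17) rose, and the antagonist FST (-1.89 ± 0.33) fell. In the Notch and WNT list 11 rose, 9 fell and 22 did not pass (median 0.01), but with array centring 10 rose and 14 fell. HEY1 (3.80 ± 0.12) and the frizzled receptor FZD4 (2.88 ± 0.16) rose with the inhibitor DKK1 (1.84 ± 0.09), and the nuclear factor LEF1 (-3.73 ± 0.12) and coreceptor LRP5 (-2.44 ± 0.37) fell. Of KLF and SP factors 7 rose, 1 fell and 10 did not pass (median 0.01), with KLF9 (3.24 ± 0.24), KLF7 (3.13 ± 0.30) and KLF5 (1.41 ± 0.13) higher, KLF11 (-0.80 ± 0.17) lower and no SP gene past the threshold, and with quantile normalization 2 fell.

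Lysosome and redox genes rose more often than they fell. Of the V-ATPase subunits, which acidify the lysosome, 17 were measured, 14 rose, 1 fell and 2 did not pass (median 0.74). ATP6V0A1 (2.24 ± 0.12), ATP6V1D (1.25 ± 0.06) and ATP6V1A (1.20 ± 0.07) had the largest rises among members above the median level. Of other lysosomal genes 37 were measured, 17 rose, 6 fell and 14 did not pass (median 0.30), with FUCA1 (3.58 ± 0.15) and CTSV (2.63 ± 0.12) higher and CTSZ (-1.04 ± 0.09) and CTSL (-0.84 ± 0.10) lower. Of dehydrogenases and reductases 34 were measured, 15 rose, 3 fell and 16 did not pass (median 0.22): HPGD (2.89 ± 0.18), which inactivates prostaglandins, AKR1C3 (2.32 ± 0.09), HSD17B8 (1.78 ± 0.12) and ALDH6A1 (1.64 ± 0.11) rose. AKR1C3 has close relatives whose transcripts its probe set can bind. Of fatty acid carriers and PPAR genes 8 rose, 5 fell and 16 did not pass (median 0.03), with PPARD (2.24 ± 0.20) and FABP6 (1.96 ± 0.19) rising and PLIN2 (-1.25 ± 0.13) falling.

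Apoptosis genes did not all point one way. In the BCL2 family 5 rose, 4 fell and 7 did not pass (median 0.02). The BH3-only gene BIK (2.10 ± 0.51) rose, a call that was lost with values below 4 set to 4 (0.79). BID (-3.14 ± 0.21) and the effector BAX (-0.77 ± 0.14) fell, and among protective members BCL2 (-0.85 ± 0.15) fell while MCL1 (-0.08 ± 0.08) and BCL2L1 (-0.23 ± 0.19) did not pass. Of death receptor and caspase genes 4 rose, 7 fell and 11 did not pass (median 0.00). The TRAIL receptor TNFRSF10B (1.24 ± 0.05) rose, and the inhibitors CFLAR (-2.29 ± 0.14), XIAP (-1.24 ± 0.10) and BIRC5 (-1.01 ± 0.23) fell, as did CASP4 (-4.11 ± 0.28) and CASP6 (-1.09 ± 0.08), while CASP9 (1.28 ± 0.15) rose.

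The printed motifs were counted in the 250 bases upstream of the 9562 genes with a RefSeq promoter, on both strands. Of the promoters of genes that rose 72.4% held a GC box, against 66.8% of those that fell, 51.9% of those that did not pass and 60.6% of all. Most genes that did not pass were dim, and within the fourth of the 5 groups by level (mean of all 12 arrays) the shares were 72.6%, 68.4% and 71.1%. They were 72.1%, 65.1% and 68.6% in the third and 74.3%, 67.3% and 67.8% in the fifth, the brightest. A CCAAT box was in 43.2% of promoters of genes that rose at least 2-fold and in 31.3% of those that fell at least 2-fold, against 35.6% of all. By level, its shares among all genes that rose, fell and did not pass were 41.6%, 30.0% and 36.6% in the third group. They were 40.8%, 33.1% and 35.4% in the fourth. In the fifth they were 37.3%, 35.4% and 43.5%, highest among genes that did not pass. A CHR was in 48.4% of 31 mitotic promoters and in 9.7% of all, and an ISRE core in 61.5% of 26 promoters of interferon effectors and in 2.6% of all. Among genes that fell at least 8-fold, 8.4% of 83 promoters held an ISRE core and 12% an AP-1 site, the latter against 4.7% of all. Half-sites of the CRE were in 50% of 12 promoters of immediate early transcription factors and in 9.8% of all. The TATA box, E-box and ETS core were in 7.9%, 8.3% and 20.9% of all promoters. These shares are descriptions with no test, and genes of a family can share promoter sequence.

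Further probe sets gave the same direction for most genes above the median level. Of 927 further probe sets of genes that rose, with a higher group mean above the median level, 85.7% also rose and 1.08% fell. Of 1080 such probe sets of genes that fell, 85.3% also fell and 0.93% rose. Over all further probe sets, dim ones included, these shares of same direction were 56.0% and 57.9%.

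The SAHA step was also measured on 6 arrays that share none with the comparison above, as SAHA plus pargyline minus pargyline alone. Here 2856 genes rose (23.9%) and 2826 fell (23.6%). Of the 2754 genes that rose with SAHA alone, 2346 (85.2%) rose here too, which is 82.1% of the second list, 395 did not pass and 13 fell. Of the 2768 that fell, 2357 (85.2%) fell again, 83.4% of the second list, 401 did not pass and 10 rose. Across genes, which are not independent replicates, the log2 fold changes of the 2 steps correlated with r = 0.934 and rho = 0.856. HPCAL4 changed by 7.34 ± 0.10 in the second step, STAT4 by 5.67 ± 0.07, CDKN1A by 2.82 ± 0.25, SERPINH1 by -8.23 ± 0.26, NFKB1 by -3.86 ± 0.36 and PLK1 by -3.94 ± 0.26. Each of these passed in the direction seen without pargyline. A test of the difference between the 2 steps (the interaction) passed for 445 genes (3.72%), with 153 higher and 292 lower when pargyline was present, and for 218 of the genes that rose and 138 of those that fell with SAHA alone. This count was 245 to 261 without DMSO replicate 1 or 2, SAHA replicate 2 or the second array with both drugs, 656 without the third array with both drugs and 1079 with array weights. Among the genes described here, ENPP2 rose by 6.55 ± 0.27 without pargyline and by 2.52 ± 0.27 with it (difference -4.03 ± 0.38, adjusted p = 0.00131 in limma). HEY1 changed by 3.80 ± 0.12 and 2.32 ± 0.12 (difference -1.48 ± 0.17, adjusted p = 0.00293 in limma). ID2 changed by 4.67 ± 0.19 and 3.29 ± 0.19 (difference -1.39 ± 0.27, adjusted p = 0.0269 in limma).

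**Figure D5:**
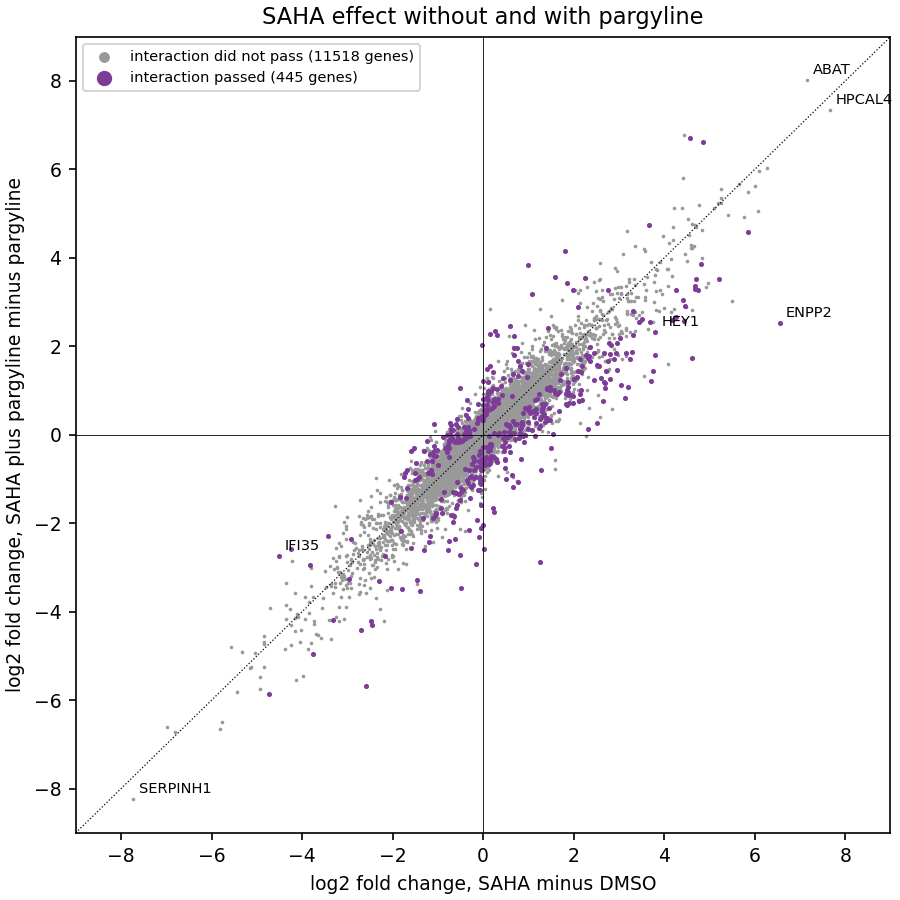
Log2 fold change of each gene for SAHA plus pargyline minus pargyline (vertical axis) against SAHA minus DMSO (horizontal axis); the dotted line marks equality and purple marks the 445 genes whose interaction passed. Points follow the line with r = 0.934, and ENPP2 lies below it.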

How the data were processed

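RNA of 12 MDA-MB-231 cultures was measured on Affymetrix human genome arrays. The deposited values are log2 intensities per probe set, made by the authors with RMA per the submitters' processing notes; its version, and whether the arrays were normalized together, are not given in the sources used here. They were used as deposited. Of 22277 probe sets, 19064 are listed for 1 gene in the platform annotation, and each of 11963 genes was taken by its brightest one; symbols were updated by gene identifier (11954 matched RefSeq, GRCh38.p14). A mean per group was fitted to all 12 arrays in limma 3.58.1 (R 4.3.3; lmFit and eBayes, 8 residual degrees of freedom), a procedure tested on simulated data. The number of arrays limits the precision.

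Genes were named from those that a rule admits, not all of which are described: the 20 largest rises and falls that passed, did not overlap and lay above the median level of 7.06, up to 4 rises and 4 falls per role of 43 gene lists (1512 genes, 1330 measured), any member of lists of 20 or fewer genes, the 10 smallest adjusted p-values, and HDAC1 to HDAC11, KDM1A, REST and other genes picked beforehand. PMEL, CRYM, PLCD1, PSMB9 and the cell type markers COL1A1, KDR and PDGFRB fall outside it. The rises and falls taken per role met the same conditions as the largest ones. Arrays that do not overlap were thus fixed in advance for genes named by the size of their change. The members, lists and motifs were chosen with earlier results of these data known. No set test was run. The alternatives changed the scaling, the choice of probe set, the filter, the estimate of the spread, the threshold or the arrays used, 1 at a time.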

Additional observations from a re-analysis of the deposited data

Results flagged for a closer look

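For 33 of the 310 genes named above, the SAHA step differed between the arrays without and with pargyline. This was limma's interaction test with an adjusted p under 0.05 over 11963 genes, which 445 of all genes passed (3.72%). Many genes were named for the size of their SAHA step, which enters the interaction, so the named genes and all genes are not like sets. The values below are the log2 difference, the step with pargyline minus the step without it. ENPP2 changed by 6.55 ± 0.27 without and 2.52 ± 0.27 with pargyline, a difference of -4.03 ± 0.38. KLF7 changed by 3.13 ± 0.30 without and 0.84 ± 0.30 with pargyline, a difference of -2.29 ± 0.43. AKR1C3 changed by 2.32 ± 0.09 without and 0.13 ± 0.09 with pargyline, a difference of -2.19 ± 0.12. S100A4 changed by 1.50 ± 0.11 without and -0.29 ± 0.11 with pargyline, a difference of -1.79 ± 0.16. PSMB9 changed by 2.61 ± 0.16 without and 1.28 ± 0.16 with pargyline, a difference of -1.33 ± 0.23. Rises were smaller with pargyline for AQP3 (-1.70 ± 0.26), PLCD1 (-1.57 ± 0.35), HEY1 (-1.48 ± 0.17), ID2 (-1.39 ± 0.27), ATF3 (-1.30 ± 0.28), DUSP1 (-1.25 ± 0.19), HPGD (-1.17 ± 0.25), CBX7 (-1.13 ± 0.22), PLAT (-1.11 ± 0.14), KRT19 (-1.08 ± 0.19) and JUNB (-1.01 ± 0.13). The difference was smaller than 1 for the rises of IFI6 (-0.90 ± 0.17), ID1 (-0.72 ± 0.16), ENO2 (-0.71 ± 0.16), TFPI2 (-0.65 ± 0.14), DUSP10 (-0.62 ± 0.13), DUSP5 (-0.47 ± 0.07), TFDP2 (-0.46 ± 0.09) and WASF3 (-0.37 ± 0.08). Falls were smaller for IFI35 (1.77 ± 0.20), TNFAIP2 (0.79 ± 0.16) and CDC25B (0.49 ± 0.08). Larger changes with pargyline were seen for the rises of CYFIP2 (2.14 ± 0.38) and TEX14 (1.77 ± 0.30) and for the falls of ITGB4 (-1.74 ± 0.39), IL27RA (-1.12 ± 0.09), SRC (-1.01 ± 0.20) and CCNE2 (-0.76 ± 0.15). For IL27RA both steps ended in the low range, at 3.83 with SAHA and 3.18 with both drugs. They started from 8.56 with DMSO and 9.03 with pargyline. For PLCD1 the start was 3.43 with DMSO and 4.57 with pargyline, and the end 7.60 with SAHA and 7.17 with both drugs. For IFI35 the start was 7.78 with DMSO and 8.32 with pargyline, and the end 3.26 with SAHA and 5.57 with both drugs. A difference between steps thus holds differences in the start as well as in the end. The adjusted p ran from 8.21e-05 to 0.0443. The cause of these differences was not tested.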

How the results depend on the processing

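With SAHA alone, 2463 to 2924 genes rose and 2592 to 3333 fell under every alternative that kept the full set of genes, adjusted p under 0.05 and all arrays, against 2754 and 2768. Array centring, which moved the median gene to -0.07, gave 2463 rises and 3333 falls, and values below 4 set to 4, chosen after the data were seen, gave 2525 and 2592. A change of at least 2-fold left 1123 rises and 1047 falls with SAHA alone, 1071 and 1098 with SAHA added to pargyline, 875 and 860 in both comparisons, and 143 interaction genes. The interaction count of 445 became 670 with the replicate block, 1079 with array weights and 92 at an adjusted p under 0.01; the compared groups alone give no interaction value. Leaving out 1 array at a time gave 2532 to 2677 rises and 2536 to 2632 falls with SAHA alone, 2645 to 2833 and 2608 to 2775 with SAHA added to pargyline, 2191 to 2317 and 2216 to 2301 in both, and 245 to 656 interaction genes. The interaction count was 251 without DMSO replicate 1, 245 without DMSO replicate 2, 261 without SAHA replicate 2 and 246 without the second array with both drugs.

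Same-numbered DMSO and SAHA samples had correlated deviations of 0.33, 0.09 and 0.30, and each sample correlated best with its own number, a hint from the data and not from the design. With replicate number as a block 2855 genes rose and 2868 fell with SAHA alone, and of the genes named above PDGFRB lost its call (0.10). HDAC11 reversed with quantile normalization (-0.25); the cause was not tested. List counts moved by over 1.5 times for 9 counts with quantile normalization and 11 with array centring, where 0 ribosomal protein genes rose and 26 fell. The files used here hold no detection calls, so no limit of detection is given for dim genes.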

Other observations

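Probe sets listed for several genes or for none were left out of the gene table. Of 1043 probe sets with several genes 178 rose and 224 fell with SAHA, and of 2108 with none 235 rose and 202 fell, in limma over all probe sets. By chromosome of those listed, the share of genes that rose ran from 19.6% on chromosome 22 to 26.9% on chromosome 6, and the share that fell from 18.4% on chromosome 8 to 26.6% on chromosome 12. Chromosome 6, which carries the histone and MHC clusters, had 181 rises and 134 falls among 673 genes. These shares are descriptions with no test.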
